A study of Mus musculus with 8 samples.

Results

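Voltage-gated calcium channels open when a neuron is depolarized and let calcium into the cell, where it triggers transmitter release, drives dendritic signals and reaches the nucleus to change transcription. Each channel is built around a pore-forming α1 subunit, which sets its pharmacology and voltage range, and high-voltage-activated channels carry in addition an intracellular β subunit and an extracellular α2δ subunit that promotes trafficking to the membrane. The α1 subunits fall into the CaV1 or L-type family, the presynaptic and dendritic CaV2 family of P/Q-, N- and R-type channels, and the low-threshold CaV3 or T-type family, which supports burst firing.

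The 10 genes described here, 8 for α1 subunits and 2 for α2δ subunits, were taken by name from the 13996 genes for which FPKM values of mouse brain cortex were used. FPKM is a fragment count scaled by transcript length and by library depth, so levels of different genes can be set side by side. Cortexes came from male C57BL/6 mice 16 weeks old, of which 4 had received a conventional diet (normal mice) and 4 a diet with 60% fat by weight (high fat diet fed mice) during the last 8 weeks. The high fat diet fed mice are described by the submitters as heavier and impaired in glucose tolerance. Each library was made from the rRNA-depleted RNA of a single mouse. All 10 genes passed the filter on low values (average FPKM not under 1, no mouse at 0), which left 13982 genes for the comparison.

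Each member lies on a chromosome of its own, except Cacna1d and Cacna2d3 on chromosome 14, and all are long genes. Their spans in GENCODE M21 on GRCm38 run from 59.5 kb for Cacna1h (chromosome 17, 25374285 to 25433783, minus strand) to 816.9 kb for Cacna2d3 (chromosome 14, 28904943 to 29721864, minus strand). Cacna1e lies on chromosome 1 from 154390731 to 154884501 and Cacna1b on chromosome 2 from 24603887 to 24763152, both on the minus strand. These 2 genes showed the largest differences between the diets. The 250 bases before their annotated RefSeq starts (GRCm38.p6, minus strand, chr2:24763153-24763402 and chr1:154725921-154726170) are given below. Capitals mark the GC box GGGCGG, searched on both strands.
Cacna1b: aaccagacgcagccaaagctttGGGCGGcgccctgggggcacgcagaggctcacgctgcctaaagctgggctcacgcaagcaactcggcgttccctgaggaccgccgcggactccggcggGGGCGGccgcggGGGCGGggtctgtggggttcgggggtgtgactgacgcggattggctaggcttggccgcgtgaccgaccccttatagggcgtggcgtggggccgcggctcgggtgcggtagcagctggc
Cacna1e: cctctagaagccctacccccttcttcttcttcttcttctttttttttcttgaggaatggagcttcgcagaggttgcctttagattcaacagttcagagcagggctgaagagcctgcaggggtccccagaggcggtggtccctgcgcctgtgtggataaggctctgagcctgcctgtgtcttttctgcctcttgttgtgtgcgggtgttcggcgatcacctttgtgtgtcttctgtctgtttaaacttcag
The Cacna1b sequence is 72.0% G and C and holds 3 GC boxes, while the Cacna1e sequence is 52.0% G and C and holds 0. The RefSeq start used for Cacna1e lies inside the span of the GENCODE gene, so other starts of this gene exist further upstream. The Cacna1b window instead lies directly before its GENCODE gene, so these windows are not a like comparison of promoters. RefSeq windows were matched for 7 of the 10 members, and 5 of their 10 windows held a GC box, against 32.7% of all 32851 windows of this length. The E-box CACGTG (6.02% of all windows) and the cAMP response element TGACGTCA (1.55%) were found in 0 of the members' windows.

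Before the diets are compared, the tissue itself has to be described. Markers of cortical projection neurons were well expressed in all 8 mice, but not evenly. Slc17a7, the vesicular glutamate transporter of cortical neurons, ranged from 209.5 to 315.8 FPKM under the normal diet and from 337.1 to 403.9 under the high fat diet. Summed over 10 such markers, FPKM was 492.6, 361.9, 343.7 and 509.6 in normal mice 1 to 4 and 540.2 to 665.2 under the high fat diet. The summed FPKM of 9 striatal genes was 238.8 to 440.1 in normal mice and 79.4 to 88.9 in high fat diet fed mice. That of 8 cerebellar genes was 72.3, 359.9, 451.1 and 133.6 in normal mice 1 to 4 and 54.3 to 73.4 under the high fat diet, and that of 10 thalamic genes was 56.1, 181.8, 175.7 and 66.6 against 34.1 to 39.5. Normal mice 2 and 3 therefore stood apart from normal mice 1 and 4, higher in cerebellar and thalamic transcripts and lower in projection neuron transcripts. The striatal sum did not follow this pattern, at 440.1, 361.1, 343.8 and 238.8 in normal mice 1 to 4. All normal mice held more striatal transcripts than each high fat diet fed mouse. In limma at an adjusted p under 0.05, 8 of 8 oligodendrocyte markers fell, against 15.3% of all genes. Of the projection neuron markers 7 of 10 rose, against 17.7% of all genes. Of the markers tested, 9 of 9 striatal, 4 of 7 cerebellar and 4 of 9 thalamic ones fell. In bulk tissue, fewer cells of a type and less RNA per cell cannot be told apart, and diet and striatal transcript level cannot be told apart here, since the mean of the striatal list correlated with diet at -0.98 over the 8 mice. Penk, the striatal marker with the highest level, was at 71.3 to 131.5 FPKM in normal mice and at 9.3 to 12.3 under the high fat diet, and the cerebellar Gabra6 and thalamic Shox2 were at 0 in at least 1 high fat diet fed mouse. The part of these transcripts in the differences of the channel genes was tested only as far as the fits with marker lists below go.

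Among the members in normal mice, transcripts of the α2δ subunits were the most abundant and those of T-type and L-type α1 subunits the least. In normal mice the order of mean FPKM was Cacna2d1 (48.6), Cacna2d3 (39.3), Cacna1e (32.1), Cacna1a (19.3), Cacna1b (16.9), Cacna1i (13.8), Cacna1g (12.4), Cacna1c (12.4), Cacna1d (6.98) and Cacna1h (6.80). The values of neighbours in this order overlapped for all pairs except Cacna1e with Cacna1a and Cacna1c with Cacna1d. In high fat diet fed mice the order was kept apart from exchanges between neighbours, and the exchange of Cacna1e and Cacna2d3 was seen in each mouse. Cacna2d3 was above Cacna1e in 4 of 4 normal mice, and Cacna1e was above Cacna2d3 in 4 of 4 high fat diet fed mice. The ratio of Cacna1e to Cacna2d3 was 0.68, 0.77, 0.93 and 0.94 in normal mice and 1.40, 1.23, 1.23 and 1.37 in high fat diet fed mice. This pair was chosen after its values were seen, so the ratio is given as a description only.

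In the comparison of the diets, 6 of the 10 members rose in high fat diet fed mice, 0 fell and 4 did not pass the adjusted threshold of 0.05 (limma on log2(FPKM + 0.1), Benjamini-Hochberg adjustment over all genes tested). The genes that rose were those of all 3 CaV2 channels, both CaV1 channels and the T-type gene Cacna1h. Of all 13982 genes 33.1% passed the same threshold, 17.7% as higher and 15.3% as lower. The median log2 fold change of the members was 0.21, against 0.00 (0.0031) over all genes. None of the increases was large: 0 of 10 members also exceeded a change of 1.5 times, which 7.13% of all genes did. Values of the diets did not overlap for 4 members, all higher in high fat diet fed mice, against 31.9% of all genes in either direction and 17.2% in that one. The fold change was above 0 for 9 members and for 50.6% of all genes.

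**Figure D1:**
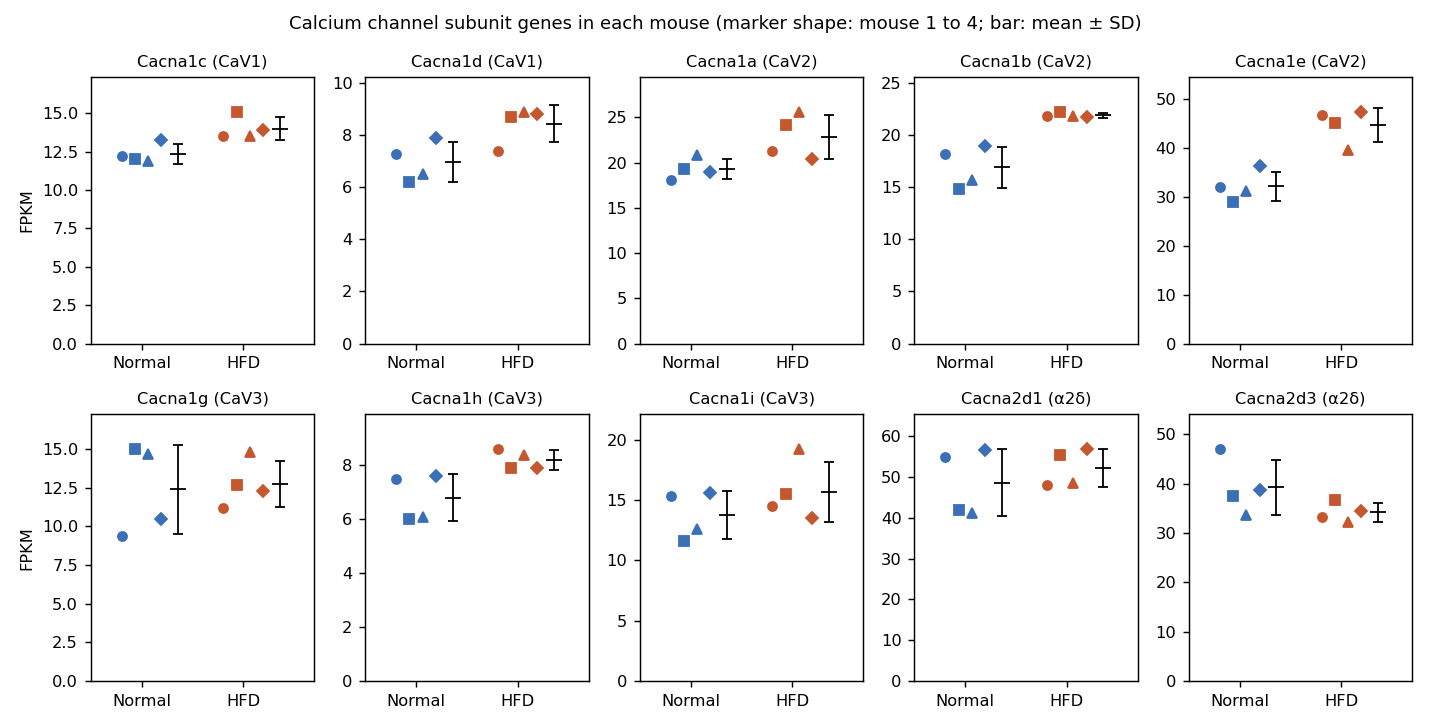
FPKM of each of the 10 subunit genes on a linear axis from 0, with 4 normal mice in blue and 4 high fat diet fed mice in orange, the marker shape giving mouse 1 to 4, and black bars the mean ± SD. The diets do not overlap for Cacna1c, Cacna1b, Cacna1e and Cacna1h, and Cacna1g shows normal mice 2 and 3 (15.0 and 14.7) above normal mice 1 and 4 (9.4 and 10.5).

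The largest differences were those of the CaV2 genes Cacna1e and Cacna1b. Cacna1e, which encodes the pore of R-type channels found in dendrites and presynaptic terminals, was at 32.0, 28.9, 31.2 and 36.2 FPKM in the normal mice and at 46.6, 45.1, 39.5 and 47.3 in the high fat diet fed mice. Each high fat diet fed mouse was above each normal mouse. The mean increased from 32.1 ± 3.05 (SD, n = 4) to 44.6 ± 3.54 (SD, n = 4), 0.48 ± 0.08 (SE) on the log2 scale (39.1%) with a limma adjusted p = 0.00261. Cacna1b, the pore of N-type channels at presynaptic release sites, was at 18.2, 14.8, 15.7 and 18.9 in normal mice and at 21.8, 22.2, 21.8 and 21.7 in high fat diet fed mice. Here the groups were again separate, and the high fat diet fed mice were much more alike than the normal mice. The means were 16.9 ± 1.96 and 21.9 ± 0.222, 0.38 ± 0.08 (SE) on the log2 scale with a limma adjusted p = 0.00589. Leaving out any single mouse kept both genes past the threshold, with log2 fold changes of 0.43 to 0.54 for Cacna1e and 0.32 to 0.43 for Cacna1b.

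Cacna1a encodes the P/Q-type pore that carries much of the calcium for fast release and is especially abundant in cerebellar neurons. It was at 18.1, 19.3, 20.8 and 19.0 in normal mice and at 21.3, 24.2, 25.6 and 20.4 in high fat diet fed mice. Normal mouse 3 lay above high fat diet fed mouse 4, so the groups overlapped. On the log2 scale the increase was 0.24 ± 0.08 (SE; limma, adjusted p = 0.0404), and 3 of 8 fits without 1 mouse kept the call. The CaV2 sum per mouse was 63.0 to 74.1 FPKM in normal mice and 86.9 to 91.5 under the high fat diet, and its share of the FPKM of all 8 α1 members was 56.6% ± 0.885 and 60.2% ± 2.06. High fat diet fed mouse 3 held a CaV2 share of 57.3%, within the range of the normal mice.

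The L-type genes differed less than Cacna1e and Cacna1b. Cacna1c, the main L-type pore of the brain and of the heart, was at 12.2, 12, 11.9 and 13.3 in normal mice and at 13.5, 15.1, 13.5 and 13.9 in high fat diet fed mice. The groups were separate, but normal mouse 4 at 13.3 lay close to high fat diet fed mice 1 and 3 at 13.5. On the log2 scale the increase was 0.18 ± 0.06 (SE; limma, adjusted p = 0.0403), and 1 of 8 fits without 1 mouse kept the call, with adjusted p up to 0.111. Cacna1d, an L-type pore that opens at more negative voltages, was at 7.3, 6.2, 6.5 and 7.9 in normal mice and at 7.4, 8.7, 8.9 and 8.8 in high fat diet fed mice. High fat diet fed mouse 1 lay within the range of the normal mice, below the other 3 of its diet. On the log2 scale the increase was 0.28 ± 0.09 (SE; limma, adjusted p = 0.0451), and 2 of 8 such fits kept the call.

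Of the 3 T-type genes 1 rose. Cacna1h was at 7.5, 6.0, 6.1 and 7.6 in normal mice and at 8.6, 7.9, 8.4 and 7.9 in high fat diet fed mice, without overlap. On the log2 scale the increase was 0.27 ± 0.09 (SE; limma, adjusted p = 0.0421), and 2 of 8 fits without 1 mouse kept the call. Cacna1i, a T-type pore with slow kinetics, was at 15.3, 11.6, 12.6 and 15.6 in normal mice and at 14.5, 15.5, 19.2 and 13.5 in high fat diet fed mice. The groups overlapped broadly, and the log2 fold change was 0.18 with a 95% interval from -0.10 to 0.47 (limma adjusted p = 0.285). Cacna1g, the T-type pore typical of thalamic relay neurons and also present in the cerebellum, was at 9.4, 15.0, 14.7 and 10.5 in normal mice and at 11.2, 12.7, 14.8 and 12.3 in high fat diet fed mice. The high fat diet fed mice all lay within the range of the normal mice, and the log2 fold change was 0.06 with a 95% interval from -0.28 to 0.41 (limma adjusted p = 0.781), and its sign changed to -0.04 when values were taken relative to pan-neuronal genes.

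The normal mice with the most Cacna1g were those with the most cerebellar and thalamic transcripts. Cbln3, a gene of cerebellar granule cells, was at 1.6, 37.3, 56.1 and 12.5 FPKM in normal mice 1 to 4 and at 0.2 to 0.6 under the high fat diet, and Prkcd, a thalamic marker, was at 11.7, 35.1, 30.1 and 6.9 and at 2.7 to 3.8. Cacna2d2, an α2δ gene of cerebellar Purkinje cells that is outside the 10 members, followed the same mice, at 6.3, 10.8, 12.6 and 6.1 in normal mice and 5.7 to 6.6 in high fat diet fed mice. Among the members, 8 were lower in both normal mice 2 and 3 than in both normal mice 1 and 4, and the other 2, Cacna1a and Cacna1g, were higher. Over all genes tested, 27.3% were lower and 26.0% higher in these mice in the same way.

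**Figure D2:**
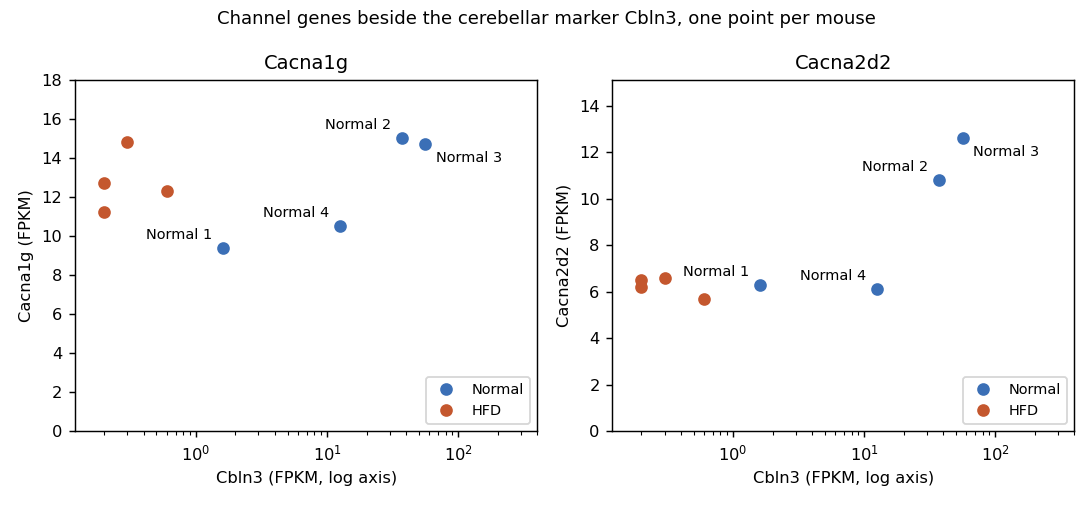
FPKM of Cacna1g (left) and Cacna2d2 (right) against FPKM of Cbln3 on a log axis, 1 point per mouse, normal mice in blue and high fat diet fed mice in orange. Normal mice 2 and 3, at 37.3 and 56.1 for Cbln3, have the highest Cacna2d2 (10.8 and 12.6), whereas high fat diet fed mouse 3 reaches 14.8 for Cacna1g with Cbln3 at 0.3.

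When the mean of the cerebellar list entered the model as a covariate, Cacna1g reached a log2 fold change of 0.57 (limma adjusted p = 0.0485) and Cacna2d3 one of -0.48 (limma adjusted p = 0.0241), and these were then the 2 of 10 members past the threshold. Of all genes 6.28% passed in this fit, and the cerebellar mean itself correlated with diet at -0.79 over the 8 mice. Cacna1e was then at 0.39 and Cacna1b at 0.16, and both lost their call (limma adjusted p = 0.0952 and 0.286). In a fit without both normal mice 2 and 3, which was added after the values were seen, 3 of 10 members and 19.7% of all genes passed. These were Cacna1e at 0.39, Cacna1b at 0.24 and Cacna2d3 at -0.32, and Cacna1c (0.13), Cacna1d (0.15), Cacna1a (0.30) and Cacna1h (0.12) did not, nor did Cacna1g at 0.35. With the thalamic list as a covariate, whose mean correlated with diet at -0.76, 0 members and 6.27% of all genes passed in limma, and Cacna1e was at 0.30 (limma adjusted p = 0.093). Most calls over all genes were lost in the fits with the cerebellar and thalamic lists. With the striatal list as a covariate, whose mean correlated with diet at -0.98, 0 of all 13982 genes passed in limma. Cacna1e was then at -0.0198 and Cacna1b at 0.0745, and diet and striatal level could not be separated.

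Both α2δ genes missed the threshold. Cacna2d1, whose product is the binding site of gabapentin, was at 54.8, 41.9, 41.2 and 56.5 in normal mice and at 48.1, 55.5, 48.4 and 56.8 in high fat diet fed mice, and the groups overlapped over most of their range. Its log2 fold change was 0.11 with a 95% interval from -0.14 to 0.37 (limma adjusted p = 0.464). Cacna2d3 was at 47.0, 37.6, 33.7 and 38.7 in normal mice and at 33.2, 36.8, 32.2 and 34.5 in high fat diet fed mice. It was the only member with a mean below that of the normal mice, with a log2 fold change of -0.19 and a 95% interval from -0.40 to 0.02 (limma adjusted p = 0.139). Without normal mouse 1, the highest at 47.0, the log2 fold change of Cacna2d3 was -0.10 (limma adjusted p = 0.276). In 1 of 8 fits without 1 mouse, that without normal mouse 3, it passed at -0.26 (limma adjusted p = 0.0485). The ratio of summed FPKM of both α2δ members to that of the 8 α1 members is given as a description only. It was 0.85, 0.70, 0.63 and 0.74 in normal mice and 0.56, 0.61, 0.53 and 0.63 in high fat diet fed mice. The groups did not overlap in this ratio, although normal mouse 3 and high fat diet fed mouse 4 were almost equal. The α2δ sum itself overlapped, at 74.9 to 101.8 in normal and 80.6 to 92.3 in high fat diet fed mice. The α1 sum did not, at 113.8 to 129.0 and 144.9 to 151.7.

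**Figure D3:**
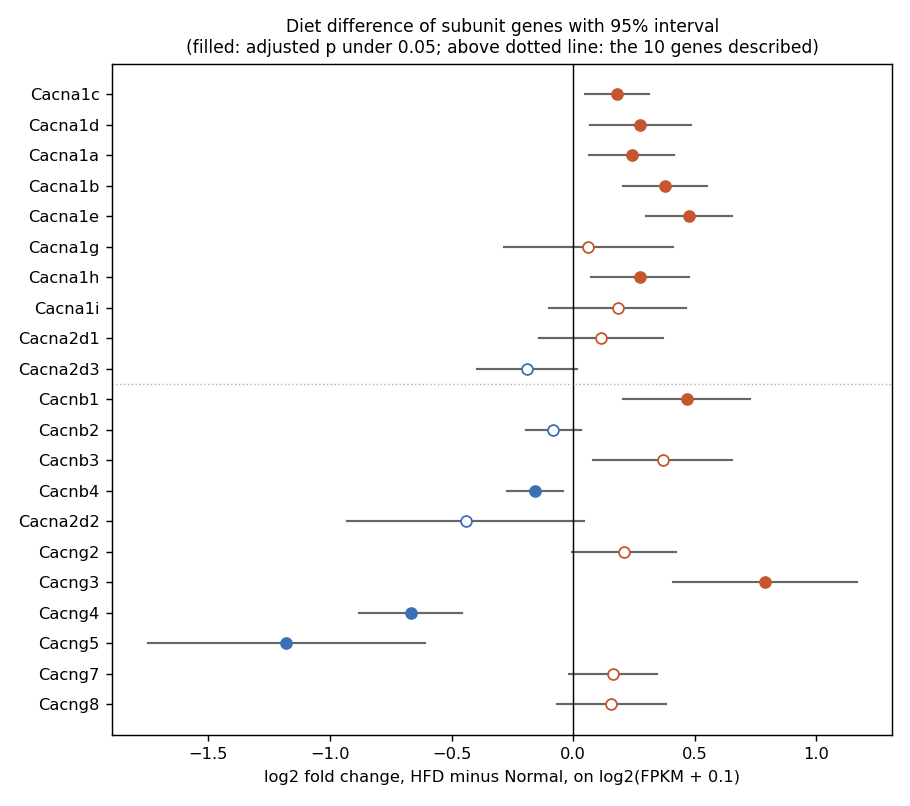
Log2 fold change (high fat diet fed minus normal) on the log2(FPKM + 0.1) scale with its 95% interval for the 10 members (top) and 11 further subunit genes (bottom), filled where the adjusted p was below 0.05. The members range from -0.19 for Cacna2d3 to 0.48 for Cacna1e, and the further genes from -1.18 for Cacng5 to 0.79 for Cacng3.

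The further subunit genes moved in both directions. Of 16 listed, 11 had values and all 11 were tested, of which 2 rose, 3 fell and 6 did not pass (against 17.7% and 15.3% of all genes), with a median log2 fold change of 0.16. Cacnb1, a β subunit, rose from 29.7 ± 5.34 to 40.7 ± 2.82 FPKM (0.47 on the log2 scale, limma adjusted p = 0.0146), and Cacnb4, the β subunit lost in lethargic mice, fell slightly from 45.8 ± 0.967 to 41.1 ± 2.62 (-0.16, limma adjusted p = 0.0413). The call of Cacnb4 was kept in 1 of 8 fits without 1 mouse (that without high fat diet fed mouse 3), with limma adjusted p up to 0.106. Cacnb3 had the highest level of the 4 β genes and a log2 fold change of 0.37 that missed the threshold (limma adjusted p = 0.0505), and Cacnb2 was at -0.08. The share of Cacnb4 in the summed FPKM of the 4 β genes was 26.5 to 32.9% in normal mice and 22.5 to 23.7% under the high fat diet, and that of Cacnb1 was 17.8 to 20.2% and 21.7 to 24.5%.

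The γ genes, named after their likeness to the γ subunit of the muscle channel, mostly encode partners of AMPA receptors. Cacng3 rose from 15.8 ± 4.29 to 26.6 ± 2.34 FPKM (0.79 on the log2 scale, limma adjusted p = 0.00759). Cacng4 fell from 6.13 ± 0.727 to 3.8 ± 0.216 (-0.67, limma adjusted p = 0.0014), and Cacng5 fell from 4.15 ± 1.33 to 1.73 ± 0.386 (-1.18, limma adjusted p = 0.00771). These 3 genes were the subunit genes with a change above 1.5 times in either direction. Cacng2 (0.21), Cacng7 (0.16), Cacng8 (0.16) and Cacna2d2 (-0.44) did not pass.

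Of 22 proteins known to bind or regulate the channels, 18 genes were tested, and 3 rose and 3 fell with a median log2 fold change of -0.01, a share of calls near the 33.1% of all genes. Rem2, a small GTPase that inhibits high-voltage-activated channels, fell from 5.08 ± 1.04 to 2.08 ± 0.126 FPKM (-1.23 on the log2 scale, limma adjusted p = 0.000855). Rimbp2, which tethers CaV2 channels at the active zone, rose from 20.3 ± 3.54 to 32.1 ± 1.85 (0.67, limma adjusted p = 0.00261). Stx1a, a syntaxin that binds N- and P/Q-type channels, was at 0.49 (limma adjusted p = 0.0465), and Cachd1, an α2δ-like protein, at -0.54 (limma adjusted p = 0.0321), both with overlapping values. Without 1 mouse, Stx1a kept its call in 2 of 8 fits (limma adjusted p up to 0.118) and Cachd1 in 3 of 8 (up to 0.0867).

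Of 14 genes whose products respond to calcium that has entered, 3 rose, 2 fell and 9 did not pass, with a median of -0.03, again near the 33.1% of all genes. Kcnn2, a calcium-activated potassium channel of small conductance, rose from 13.4 ± 0.751 to 18.5 ± 1.24 FPKM (0.46 on the log2 scale, limma adjusted p = 0.0012), and Camk2a, a kinase of excitatory synapses, was at 0.44 (limma adjusted p = 0.0334), a call kept in 4 of 8 fits without 1 mouse. Camk4, a nuclear calcium/calmodulin kinase, fell from 41.0 ± 2.65 to 27.9 ± 1.6 (-0.56, limma adjusted p = 0.000684), and Ppp3ca, a catalytic subunit of calcineurin, fell from 452 ± 55.6 to 339 ± 18.1 (-0.41, limma adjusted p = 0.00691). Values of all 3 genes other than Camk2a were separate between the diets.

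The members are long transcripts. Exonic length in GENCODE M21 was above 7 kb for 9 of the 10 members and 3938 bp for Cacna2d3. Over all genes, the share that rose grew with exonic length, from 9.72% of 3550 genes under 2 kb to 31.8% of 1517 genes of 7 kb or more, while the share that fell went from 17.7% to 9.23%. The median log2 fold change was -0.04 in the shortest class and 0.09 in the longest. After a correction of each mouse's values on exonic length, 2 of 10 members passed, Cacna1e at 0.33 and Cacna1b at 0.29, and Cacna1c went to 0.04. Over all genes the share past the threshold was 32.6% after this correction, against 33.1% before it.

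**Figure D4:**
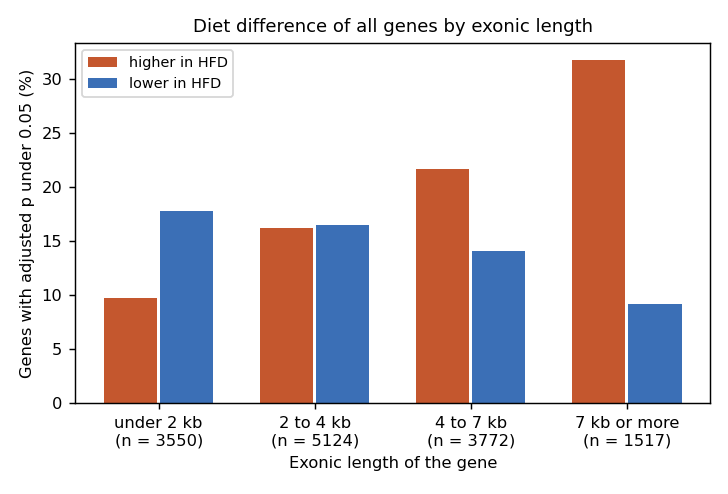
Percentage of all genes with an adjusted p below 0.05 that were higher (orange) or lower (blue) in high fat diet fed mice, by exonic length class with the number of genes. In the class of 7 kb or more, which holds 9 of the 10 members, 31.8% of genes were higher and 9.23% lower.

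The count of 6 members varied with the mice included. It was 3 without normal mouse 1, 2 without normal mouse 2, 4 without normal mouse 3 and 5 without normal mouse 4. Without normal mouse 3 these were 3 that rose and Cacna2d3, which fell (-0.26, limma adjusted p = 0.0485). The count was 4 when high fat diet fed mouse 1 was left out, 2 for mouse 2, 2 for mouse 3 and 3 for mouse 4 of that diet. Over all genes the share past the threshold also moved, between 23.6% and 33.1% in these fits, and was lowest without normal mouse 2 and without high fat diet fed mouse 2. Cacna1b and Cacna1e were among those past the threshold in each of these 8 fits. Relative to the mean of pan-neuronal genes, a scaling in which 1371 genes were higher and 2822 lower, in place of 2480 and 2146, Cacna1e (0.38) and Cacna1b (0.28) still rose, Cacna2d3 fell (-0.29, limma adjusted p = 0.0439) and the other 7 members did not pass.

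**Figure D5:**
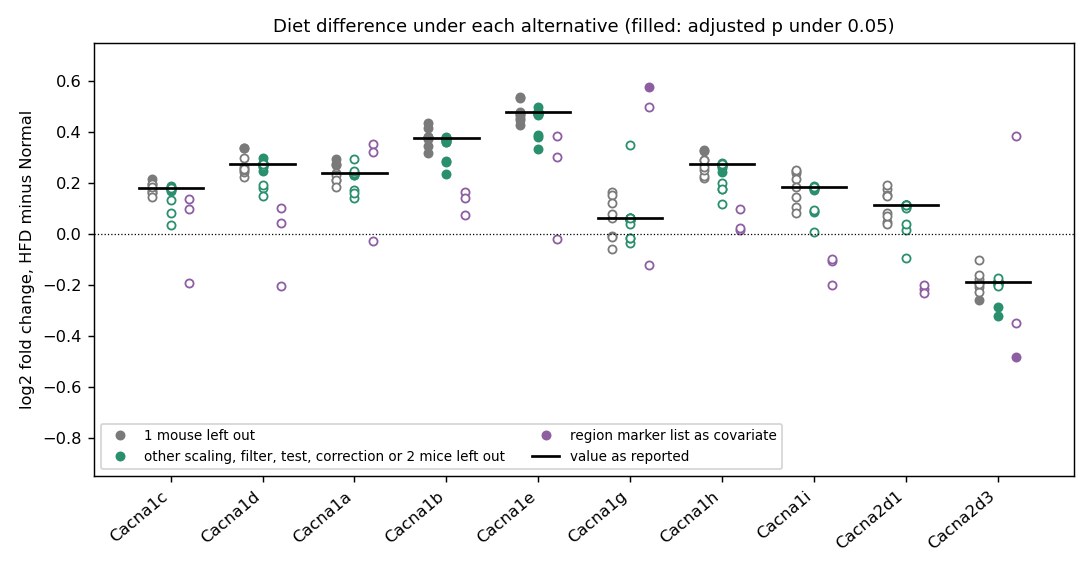
Log2 fold change of each member (high fat diet fed minus normal) as reported (black line) and under each alternative, with filled points where the adjusted p was below 0.05. With 1 mouse left out (grey) Cacna1e stays between 0.43 and 0.54, whereas with a region marker list as covariate (purple) Cacna1g ranges from -0.12 to 0.57 and Cacna2d3 from -0.48 to 0.38.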

How the data were processed

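RNA sequencing of brain cortex was performed by the authors on 8 mice, 4 per diet, and the values deposited by the authors are FPKM. Per the labels and methods, reads were checked with FastQC, trimmed with Trimmomatic and aligned to mm10 with STAR, and FPKM were calculated with Cuffnorm on GENCODE M17 (GRCm38.p6). No tool versions were found in these sources. Depth per mouse is unknown, FPKM are rounded to 0.1, and 14 of 13996 genes lay outside the filter used (average FPKM not under 1, no mouse at 0).

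From these values, log2(FPKM + 0.1) was compared between diets with limma 3.58.1 in R 4.3.3 (variance trend, two-sided, Benjamini-Hochberg adjustment over 13982 genes). Fold changes are on the log2(FPKM + 0.1) scale, which understates changes of low genes. The authors used a t-test on FPKM together with a Salmon and edgeR analysis and kept genes found by both. The t-test on FPKM was tried here as an alternative, and the Salmon values were not analysed here. Tables and figures were made with Python 3.11.15, pandas 2.3.3 and matplotlib 3.10.9, and the procedure was tested on simulated data. Gene models came from GENCODE M21, in which 13977 of the 13996 genes were found. The members and lists were chosen with earlier results of these data known. Genes named were the 10 members, all further subunit genes with values, the 4 largest passing changes of the regulator and effector lists, and markers. Marker lists for interneurons (2 of 10 rose, 3 fell), pan-neuronal genes (1 rose, 1 fell of 10), astrocytes (1 rose, 3 fell of 8), microglia (0 of 7 passed in limma) and endothelium (2 of 6 fell) were also examined.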

Additional observations from a re-analysis of the deposited data

Results flagged for a closer look

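Among the 21 subunit genes, the lowest or highest of the 4 mice of a diet was tested against the gap expected for samples of one group, in 42 groups. In 1 group a mouse lay far from the others: Cacna1d was 7.4 FPKM in high fat diet fed mouse 1, against 8.7 to 8.9 in the other 3, with the gap making up 0.867 of the range. About 1 in 20 groups is expected to be picked out by chance. Without this mouse the log2 fold change of Cacna1d was 0.34 (limma adjusted p = 0.0291).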

How the results depend on the processing

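With another added constant or filter, median-ratio scaling, quantile normalization and a GC correction, 32.0% to 38.1% of all genes passed. The highest share was that with a filter at an average FPKM of at least 5. The 6 members past the threshold stayed at 4 to 6 in these fits. The count moved to 3 relative to pan-neuronal genes, 2 without the variance trend, 2 with the equal-variance test on FPKM, 2 with the exonic length correction, 2 with the cerebellar covariate, 0 with the striatal and 0 with the thalamic covariate, and 3 without both normal mice 2 and 3 (chosen after seeing the data). The shares of all genes in these fits were 30.0%, 30.5%, 25.6%, 32.6%, 6.28%, 0%, 6.27% and 19.7%, in that order. Relative to pan-neuronal genes, and also without both normal mice 2 and 3, the 3 members were 2 that rose and Cacna2d3, which fell. With the cerebellar covariate the 2 members were Cacna1g, which rose, and Cacna2d3, which fell, and neither was among the 6. Without 1 mouse the count was 2 to 5. The striatal covariate left 0 of all 13982 genes past the threshold in limma, so diet and striatal level could not be separated. The count of members above the minimum change was 0 in every alternative.

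The 5 further subunit genes became 1, 0 and 0 with the cerebellar, striatal and thalamic covariates and 3 without both normal mice 2 and 3. The 6 regulators became 0 and 2 with the striatal and thalamic covariates, and the 5 effectors 0 with the striatal one. The causes were not tested.

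Signs changed as follows. With the striatal covariate Cacna1c was at -0.19, Cacna1d at -0.20, Cacna1a at -0.0264, Cacna1e at -0.0198, Cacna1g at -0.12, Cacna1i at -0.20, Cacna2d1 at -0.20, Cacna2d3 at 0.38, Cacnb3 at -0.19, Cacng4 at 0.27, Cacng7 at -0.20, Rem2 at 0.59 and Cachd1 at 0.0127. With the cerebellar covariate Cacna1i was at -0.10, Cacna2d1 at -0.21, Cacna2d2 at 0.30, Cacnb3 at -0.0106, Cacng8 at -0.17 and Stx1a at -0.0882. With the thalamic covariate Cacna1i was at -0.10, Cacna2d1 at -0.23, Cacna2d2 at 0.28, Cacnb3 at -0.0232, Cacng8 at -0.14 and Stx1a at -0.0176. Without both normal mice 2 and 3, Cacna2d1 was at -0.10, Cacna2d2 at 0.00934 and Cacng8 at -0.0337. Cacna1g was at -0.0351 relative to pan-neuronal genes, -0.0148 with the length correction, -0.0148 with the GC correction, and between -0.0602 and 0.163 with 1 mouse left out (-0.0602 without normal mouse 1, -0.00752 without normal mouse 4 and -0.0116 without high fat diet fed mouse 3).

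The replicate numbers are only names here. Same-numbered mice did not deviate together (correlations across genes of -0.04, -0.03, -0.11 and -0.07), and none of the normal mice correlated best with their own number. With the replicate number as a block, 3 members passed in place of 6, with Cacna1a, Cacna1b and Cacna1e remaining, and 3390 in place of 4626 of all genes.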
